A study of Mus musculus with 6 samples.

Results

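Chemokines are small secreted proteins that guide the movement of leukocytes, and their transcripts were followed here in primary mouse lung fibroblast cultures with and without DKK1. The genes described are 10 ligands of the CC and CX3C families (Ccl2, Ccl7, Ccl8, Ccl11, Ccl20, Ccl5, Ccl6, Ccl9, Ccl25 and Cx3cl1) out of 45706 genes in the deposited table, and the table held 15 further CC and XC ligands. The 10 members were chosen from the family with the differences between DKK1 and control libraries already known, so those differences are given as a description, with no p-value. All cells came from lungs of wild-type mice, were released with collagenase and trypsin, and grew for 7 days in medium with serum before they were detached and purified, by a method the labels do not name. The 3 control cultures had no named agent. The 3 DKK1 cultures received the recombinant mouse protein at 30 ng/ml for 24 hours. DKK1 (Dickkopf-1) is a secreted antagonist of Wnt signalling that binds the co-receptors LRP5 and LRP6. The labels give neither the age or sex of the animals nor whether replicates came from separate mice, so p-values measure the spread between these libraries.

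The 2 groups of chemokines differ in the cysteines near the start of the mature protein: those of CC ligands are adjacent, and those of CX3CL1 are separated by 3 residues. Ligands are held on cell-surface proteoglycans and signal through G-protein-coupled receptors on leukocytes, while atypical receptors bind them without G-protein signalling. In the lung, fibroblasts are among the cells that secrete monocyte-attracting chemokines such as CCL2, and NF-kB, AP-1 and C/EBP factors are well-known activators of several chemokine genes.

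Library totals ranged from 22565917 to 34727102 counts. Levels are given as CPM, the gene's counts per 1000000 counts of that library, and the floor of 3 counts corresponded to 0.0864 to 0.133 CPM. Summed CPM of 7 fibroblast markers lay between 9633 and 11726 in the 6 libraries. Collagen genes made up most of this sum, while in the fit that adds replicate number as a block Dcn and Pdgfra were called higher and Col1a1, Col1a2 and Thy1 lower. The summed CPM of 6 smooth muscle and pericyte markers was 6680 to 7429 in controls and 5614 to 6596 with DKK1, without overlap. Of these, Myh11 fell (log2 difference -0.30, SE 0.03, edgeR adjusted p = 0.00387) and was the 1 called without the block. With the block 5 of the 6 were called lower. Over all genes tested, 0.895% were called without the block and 9.42% with it, in either direction. The part of these cells in the chemokine differences was not tested. Of 6 lymphocyte markers, 4 had at most 3 counts in every library, and Cd3e was listed at 0 in all. The libraries of replicate 3 stood apart in both groups: their mean summed CPM was 2.94 times that of the other 4 libraries for epithelial markers, 2.40 times for endothelial, 1.96 times for mesothelial and 1.83 times for leukocyte and macrophage markers, against 0.893 times for fibroblast markers.

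Of the 10 members, 7 lie on chromosome 11 in 2 blocks (GRCm38, GENCODE M21 annotation). The first block, on the plus strand, runs from Ccl2 (chr11:82035571-82037453) through Ccl7 (chr11:82045712-82047525) and Ccl11 (chr11:82057823-82062955) to Ccl8 (chr11:82115185-82116799). Ccl7 starts 8.26 kb after the end of Ccl2. The second block, on the minus strand, holds Ccl5 (chr11:83525778-83530518), Ccl9 (chr11:83572919-83578636) and Ccl6 (chr11:83587882-83593087), with 9.25 kb between Ccl9 and Ccl6. Ccl20 lies on chromosome 1 (chr1:83116766-83119167), and Ccl25 (chr8:4325210-4360020) and Cx3cl1 (chr8:94772009-94782427) on chromosome 8. The strandedness of the counting is not given in the sources used here. Gm17268, opposite Ccl2, had 0 counts and E230016K23Rik, opposite Ccl6, had at most 4 counts in any library. Elavl1, opposite Ccl25, had 1824 to 2781 counts, and Ccl25 itself had 45 to 77. The expected counts of all 10 members, Ccl25 included, were whole numbers in all 6 libraries, whereas reads that RSEM divides between genes give fractional values.

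Upstream sequence is shown for 4 members, chosen with the DKK1 values known, because the neighbours Ccl6 and Ccl9 shared one pattern across libraries, Ccl20 was higher in every DKK1 library and Cx3cl1 was not. Promoter entries from RefSeq (GRCm38.p6) were matched for 6 of the 10 members: Ccl8, Ccl20, Ccl6, Ccl9, Ccl25 and Cx3cl1. The lines give the 250 bases before the RefSeq start, 5′ to 3′ on the strand of the gene, with matches to the searched motifs in capitals. They cover chr1:83116516-83116765 (plus) for Ccl20, chr11:83578637-83578886 (minus) for Ccl9, chr11:83593088-83593337 (minus) for Ccl6 and chr8:94771930-94772179 (plus) for Cx3cl1. The RefSeq start of Cx3cl1 lies inside the gene as annotated by GENCODE, which starts at 94772009, so most of its window is within that gene. The other windows shown end at the base before the GENCODE start of their gene.
Ccl20: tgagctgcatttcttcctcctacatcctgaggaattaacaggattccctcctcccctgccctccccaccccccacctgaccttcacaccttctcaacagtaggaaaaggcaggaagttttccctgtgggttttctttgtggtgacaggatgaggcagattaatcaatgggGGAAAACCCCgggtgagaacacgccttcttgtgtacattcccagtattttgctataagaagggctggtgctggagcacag
Ccl9: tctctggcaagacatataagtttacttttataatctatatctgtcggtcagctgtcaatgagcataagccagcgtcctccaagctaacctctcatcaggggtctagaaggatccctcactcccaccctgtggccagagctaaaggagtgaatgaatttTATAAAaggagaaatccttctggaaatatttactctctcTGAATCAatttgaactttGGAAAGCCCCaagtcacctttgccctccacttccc
Ccl6: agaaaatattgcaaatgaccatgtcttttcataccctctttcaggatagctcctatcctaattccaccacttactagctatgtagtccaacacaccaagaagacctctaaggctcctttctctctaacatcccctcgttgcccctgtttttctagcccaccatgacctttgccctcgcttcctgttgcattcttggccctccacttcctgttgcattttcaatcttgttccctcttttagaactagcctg
Cx3cl1: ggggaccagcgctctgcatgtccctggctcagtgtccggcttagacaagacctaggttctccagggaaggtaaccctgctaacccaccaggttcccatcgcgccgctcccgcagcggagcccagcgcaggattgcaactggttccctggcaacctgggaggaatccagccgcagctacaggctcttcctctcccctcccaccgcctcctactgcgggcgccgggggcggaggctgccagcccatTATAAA

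The motifs searched were the NF-kB consensus, AP-1 (TGANTCA), C/EBP (TTGCNNAA) and STAT (TTCNNNGAA), each on both strands, and the TATA box (TATAAA) on the sense strand. Ccl20 held 1 NF-kB match, 80 to 71 bases before the start, and Ccl9 held 1 at 35 to 26 bases, both reading as the consensus on the opposite strand. Ccl9 also held an AP-1 match at 53 to 47 bases and a TATA box at 92 to 87 bases. Ccl6 held none of the 5 motifs. The Cx3cl1 window ended in a TATA box, which lies after the GENCODE start of that gene. Of the windows not shown, that of Ccl8 and 1 of the 2 of Ccl25 held a TATA box and no other match, and the other Ccl25 window held none. Of 32851 promoter windows of the same length, 7.25% held the NF-kB consensus, 6.75% AP-1, 9.56% C/EBP, 7.02% STAT and 7.59% the TATA box. The matches did not overlap each other and are descriptions of these letters, not of binding. The best local alignment between Ccl6 and Ccl9 covered 17 columns, 16 of them identical, at 59 to 43 bases before the Ccl6 start and 18 to 2 bases before the Ccl9 start. Windows of genes on different chromosomes also gave short matches, such as 15 of 17 columns for Ccl20 and Ccl9 and 13 of 14 for Ccl20 and Ccl6. The alignment score, which rises with longer and closer matches, was 29 for Ccl6 and Ccl9 and at most 23 for the other pairs. Whether the stretch has a role was not tested. The Ccl6 and Ccl9 stretch is shown whole in capitals.
Ccl6: CTTGGCCCTCCACTTCC
Ccl9: CTTTGCCCTCCACTTCC

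Ccl6 and Ccl2 supplied most of the summed CPM of the 10 members. Summed over the 10 members, the level was 107 ± 20.7 CPM in control and 202 ± 21.7 CPM in DKK1 libraries (SD, n = 3 each). Ccl2, Ccl7, Ccl6 and Ccl9 together made up 89.0% ± 2.05 of that sum in control and 94.2% ± 0.980 in DKK1 libraries (SD, n = 3 each). Scaled to CPM per kilobase of the median annotated transcript, the control order was Ccl6 (50.8 ± 24.9), Ccl2 (32.0 ± 6.08), Cx3cl1 (18.6 ± 1.79), Ccl7 (16.95 ± 2.36), Ccl9 (7.16 ± 3.01), Ccl25 (2.28 ± 0.222), Ccl11 (0.308 ± 0.234), Ccl5 (0.236 ± 0.126), Ccl8 (0.179 ± 0.0954) and Ccl20 (0.137 ± 0.0833; SD, n = 3 each). Control libraries of Ccl6 and Ccl2 overlapped on this scale, as did those of Cx3cl1 and Ccl7, and the neighbours among the lowest 4 members could not be separated. The place of Cx3cl1 rests on the transcript chosen: its median transcript is 466 bases and its longest 3315, and with the longest transcript of each gene it stood at 2.62 ± 0.252 CPM per kilobase and ranked 5, and Ccl2 ranked above Ccl6.

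**Figure D1:**
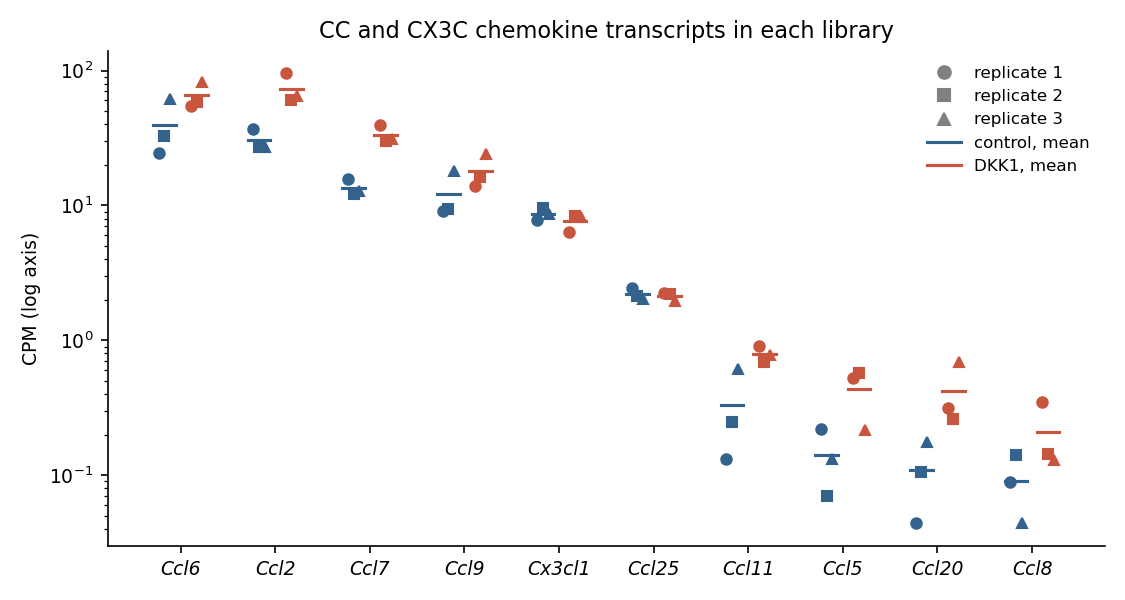
CPM (log axis) of the 10 members in each of the 6 libraries, with controls in blue, DKK1 libraries in red, a symbol for each replicate number and a line at the mean. Ccl2, Ccl7, Ccl11 and Ccl20 have every red point above every blue one, and Ccl6 and Ccl9 are highest in replicate 3 of both groups.

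Ccl2 and Ccl7 encode ligands of CCR2 that draw monocytes from blood into tissue (CCL7 also binds CCR1 and CCR3). Ccl2 stood at 37.2, 27.0 and 27.3 CPM in control libraries 1 to 3 and at 95.5, 60.0 and 65.2 CPM in DKK1 libraries 1 to 3. Every DKK1 library was above every control library, and replicate 1 was the highest of both groups. The log2 difference (DKK1 minus control) was 1.27 (SE 0.19), a 2.41-fold higher level. Ccl7 stood at 15.7, 12.2 and 12.8 CPM in controls and at 39.4, 29.8 and 31.0 CPM with DKK1, again without overlap and with replicate 1 highest in each group. Its log2 difference was 1.30 (SE 0.13), or 2.46-fold. Between same-numbered cultures the fold was 2.57, 2.22 and 2.39 for Ccl2 and 2.50, 2.44 and 2.42 for Ccl7.

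The levels of these neighbours stayed in a narrow ratio. Each library held 2.01 to 2.42 Ccl2 counts per Ccl7 count, a 1.21-fold range over 6 libraries, while the ratio of Ccl2 to Ccl6 counts ranged 3.89-fold. Measured by the root mean square difference between mean-centred log2 CPM profiles over the 6 libraries, the gene nearest to Ccl2 was Ccl7 (0.0939), among 12981 tested genes whose mean level reached 1 CPM. It was followed by Mmp3 (0.128), which encodes stromelysin-1, and Cfb (0.168), which encodes complement factor B. The ratio and the profiles both include the DKK1 difference, which was known for Ccl2 and Ccl7 when the members were chosen. Their closeness over the 6 libraries is therefore a description.

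Ccl11 and Ccl8 lie in the same block at far lower levels. Ccl11, which encodes eotaxin-1, the eosinophil-attracting ligand of CCR3, had 3, 7 and 14 counts in control libraries and 26, 24 and 18 in DKK1 libraries. In CPM this was 0.133, 0.248 and 0.618 against 0.907, 0.691 and 0.781, so the groups did not overlap, but control 3 was close to the lowest DKK1 library. The log2 difference was 1.25 (SE 0.46), and the fold between same-numbered cultures fell between 1.26 and 6.82. It passed the filter on low counts through the DKK1 libraries. Ccl8, another ligand that attracts monocytes and other leukocytes, had 2, 4 and 1 counts in controls and 10, 5 and 3 with DKK1. Pooled over libraries its rate was 2.19-fold higher (95% exact interval 0.871 to 6.19, counting error only), with overlapping groups.

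**Figure D2:**
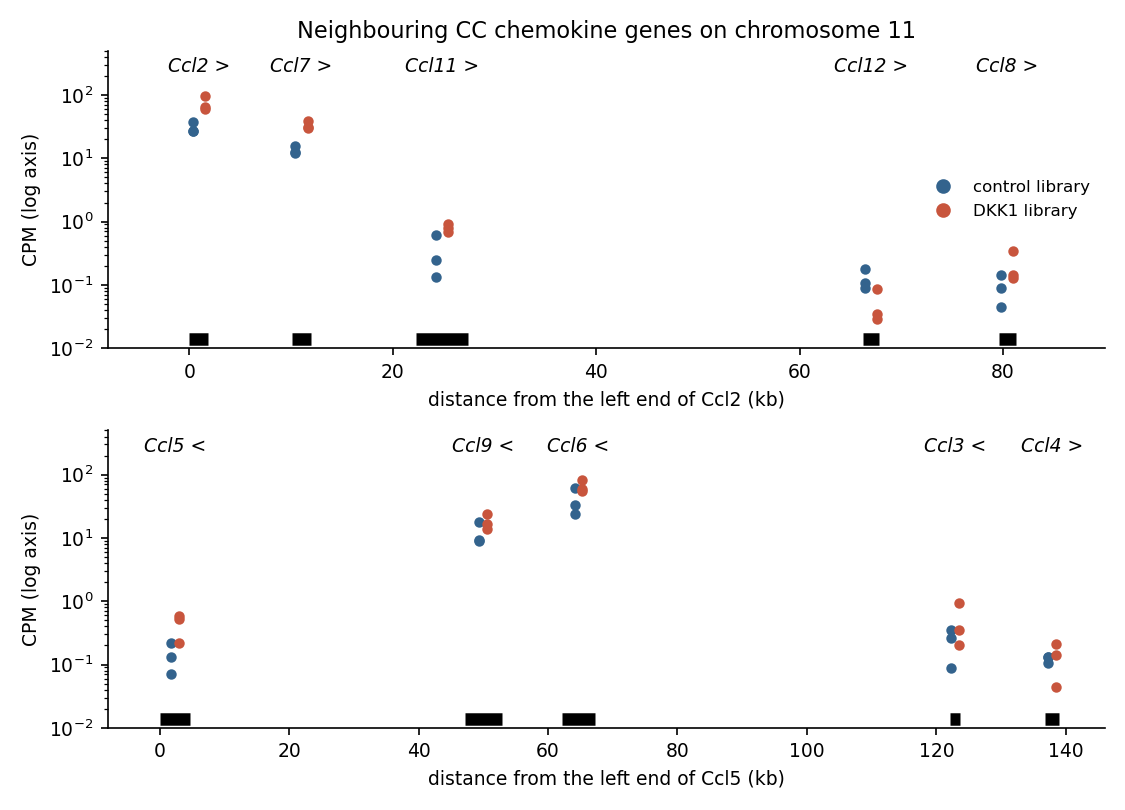
CPM (log axis) of CC chemokine genes in each library, plotted at their distance in kb from Ccl2 (upper panel) or Ccl5 (lower panel) on chromosome 11, with control points shifted left and DKK1 points right of the gene's centre. Black bars mark the genes, and > or < beside a name its plus or minus strand. Levels differ widely within a block, from Ccl2 at 27.0 to 95.5 CPM to Ccl12 with at most 4 counts.

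Ccl6 and Ccl9 encode CCR1 ligands of rodents, known mainly as products of macrophages and other myeloid cells. Ccl6 stood at 24.3, 32.9 and 61.1 CPM in control libraries 1 to 3 and at 55.1, 58.7 and 82.7 CPM in DKK1 libraries 1 to 3. Control 3 lay above DKK1 replicates 1 and 2, so the groups overlapped, although each DKK1 library was above the control of its own number by 2.27, 1.79 and 1.35-fold. Its log2 difference was 0.73 (SE 0.29) without and 0.77 (SE 0.09) with the replicate number as a block. Ccl9 stood at 9.08, 9.37 and 18.1 CPM in controls and at 13.99, 16.4 and 24.0 CPM with DKK1. Again control 3 exceeded DKK1 replicates 1 and 2, and the fold between same-numbered cultures was 1.54, 1.75 and 1.33. Its log2 difference was 0.57 (SE 0.28) without and 0.60 (SE 0.08) with the block.

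Within the control group the highest library exceeded the lowest 2.52-fold for Ccl6 and 1.99-fold for Ccl9, against 1.38-fold for Ccl2 and 1.29-fold for Ccl7. Ccl6 had 2.67 to 3.94 counts per Ccl9 count. The nearest profiles to Ccl6 were Cd53 (0.0892), a tetraspanin of leukocytes, Ptafr (0.129), the platelet-activating factor receptor, and Cybb (0.134), a subunit of the phagocyte NADPH oxidase. Ccl9 came at rank 8 (0.170), Ccl7 at rank 5887 (0.591) and Ccl2 at rank 10787 (0.650). Cx3cl1 and Ccl25, whose levels differed little, stood at like distances (0.642, rank 10401, and 0.673, rank 11538). Measured from Ccl2, the same distance put Ccl6 at rank 3020, so a rank depends on the gene it is counted from.

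The summed CPM of 11 leukocyte and macrophage markers was, like Ccl6 and Ccl9, highest in replicate 3 of both groups. It was 419, 479 and 831 in control libraries 1 to 3 and 475, 512 and 890 in DKK1 libraries 1 to 3, and 0 of the 11 had 3 or fewer counts throughout. Most of the sum was Lyz2, the lysozyme gene of myeloid cells, and not every marker had this pattern: Cd14 stood at 9.31, 9.09 and 9.54 CPM in controls and 17.8, 15.5 and 17.3 CPM with DKK1. Between same-numbered cultures the sum was 1.13, 1.07 and 1.07-fold higher with DKK1. Ccl6 per unit of this sum was 0.0580, 0.0685 and 0.0736 in controls and 0.116, 0.115 and 0.0928 with DKK1, with no overlap. Ccl9 per unit was 0.0196 to 0.0218 in controls and 0.0270 to 0.0320 with DKK1, also without overlap. These ratios depend on the markers summed, since Lyz2 itself differed little (log2 difference 0.06, SE 0.30). The 3 genes nearest to Ccl6 in profile had log2 differences about as large as that of Ccl6 (0.73): 0.67 for Cd53, 0.82 for Ptafr and 0.76 for Cybb. They were picked by their likeness to Ccl6 over these same libraries. Single markers differed in direction. Cd14, a co-receptor for lipopolysaccharide, rose with a log2 difference of 0.85 (SE 0.08, edgeR adjusted p = 0.0028). It was the 1 marker of 11 called without the block, beside 0.895% of all genes tested. With the replicate block, which called 9.42% of all genes tested, Adgre1, Itgam, Cd14 and Marco were higher and Csf1r, Siglecf, Cx3cr1 and C1qa lower. In bulk libraries, fewer cells of a type and less RNA per cell cannot be told apart, and the part of leukocyte RNA in the Ccl6 and Ccl9 differences was not tested.

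**Figure D3:**
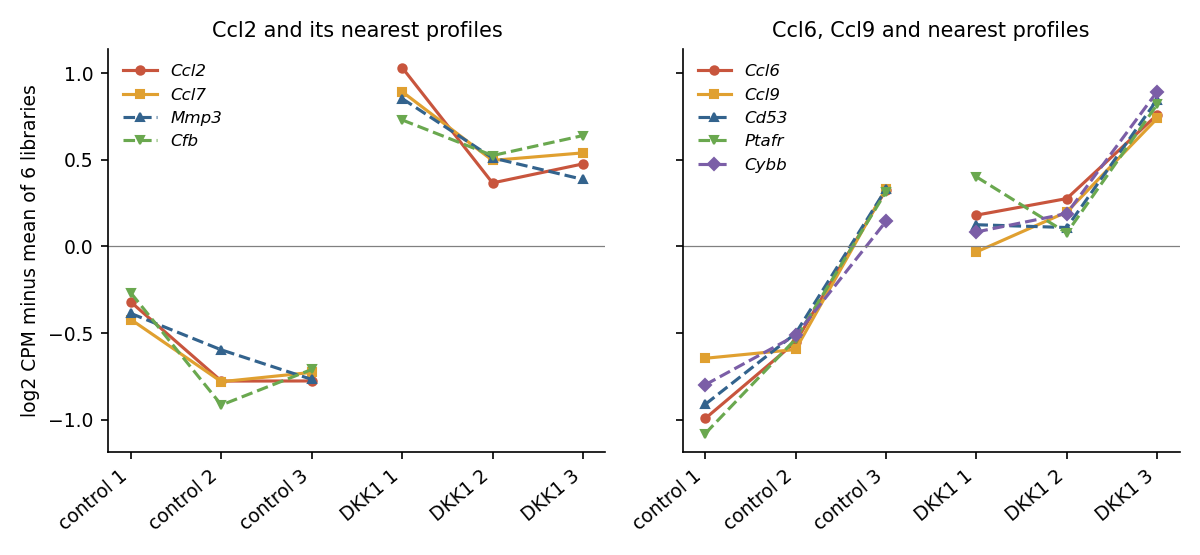
Log2 CPM of each gene minus its mean over the 6 libraries, for Ccl2 with its 3 nearest profiles (left) and for Ccl6 with Ccl9 and its 3 nearest profiles (right). Lines join the libraries of a group only to guide the eye, since replicates have no order. On the left every DKK1 library is above every control library, and on the right replicate 3 is highest in both groups.

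Ccl5 and Ccl20 were near the floor. Ccl5 (RANTES, an attractant of T cells and monocytes) had 5, 2 and 3 counts in controls and 15, 20 and 5 with DKK1. The groups touched, since DKK1 replicate 3 (0.217 CPM) was below control 1 (0.222 CPM). The pooled rate was 3.40-fold higher (95% exact interval 1.67 to 7.63, counting error only). Ccl20, the ligand of CCR6, had 1, 3 and 4 counts in controls and 9, 9 and 16 with DKK1, from 0.0443 to 0.177 CPM against 0.259 to 0.694 CPM. Its groups did not overlap, and the pooled rate was 3.61-fold higher (95% exact interval 1.64 to 9.03, counting error only). In this gene, DKK1 replicate 3 was the highest library. Ccl5, Ccl8 and Ccl20 were not tested because they did not pass the filter on low counts.

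Cx3cl1 and Ccl25 did not share the higher levels. Cx3cl1 encodes fractalkine, a membrane-anchored ligand of CX3CR1 that is shed by the proteases ADAM10 and ADAM17. It stood at 7.84, 9.52 and 8.70 CPM in controls and at 6.35, 8.32 and 8.24 CPM with DKK1, with overlapping groups. Its log2 difference was -0.19 (SE 0.13), and all 3 DKK1 libraries lay below the control of their own number. Ccl25, a ligand of CCR9 known from thymus and gut, stood at 2.44, 2.12 and 2.03 CPM in controls and at 2.23, 2.22 and 1.95 CPM with DKK1. All 6 libraries lay close together, with a log2 difference of -0.04 (SE 0.17).

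Across the members, 8 of 10 were higher with DKK1 in all 3 same-numbered comparisons, 1 (Cx3cl1) was lower in all 3, and Ccl25 was mixed. The 8 include Ccl8, Ccl5 and Ccl20 with few counts, and Ccl8 was 1.02-fold higher in replicate 2 (4 against 5 counts). Of the 7 tested members 5 had this pattern, as did 22.3% of the 14635 genes tested. Every DKK1 library was above every control library for Ccl2, Ccl7, Ccl11 and Ccl20. Of the 7 tested members these were 3 (Ccl2, Ccl7 and Ccl11, the last of which passed the filter through the DKK1 libraries), where 9.4% of all genes tested had this pattern. In the fit over those genes, calls were made where the adjusted p was below 0.05, and 0.895% were called in either direction and 0.697% as higher. With the replicate number as a block these shares were 9.42% and 4.96%. Of the 7 members that passed the filter, 2 (Ccl2 and Ccl7) were called without the block and 4 with it (also Ccl6 and Ccl9), each with a higher level in DKK1 libraries. These counts come from the contrast that was known when the members were chosen. Without control replicate 2, Ccl2 was lost and 1 member was called. Without control replicate 3, Ccl2 was also lost, while Ccl6 was called.

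**Figure D4:**
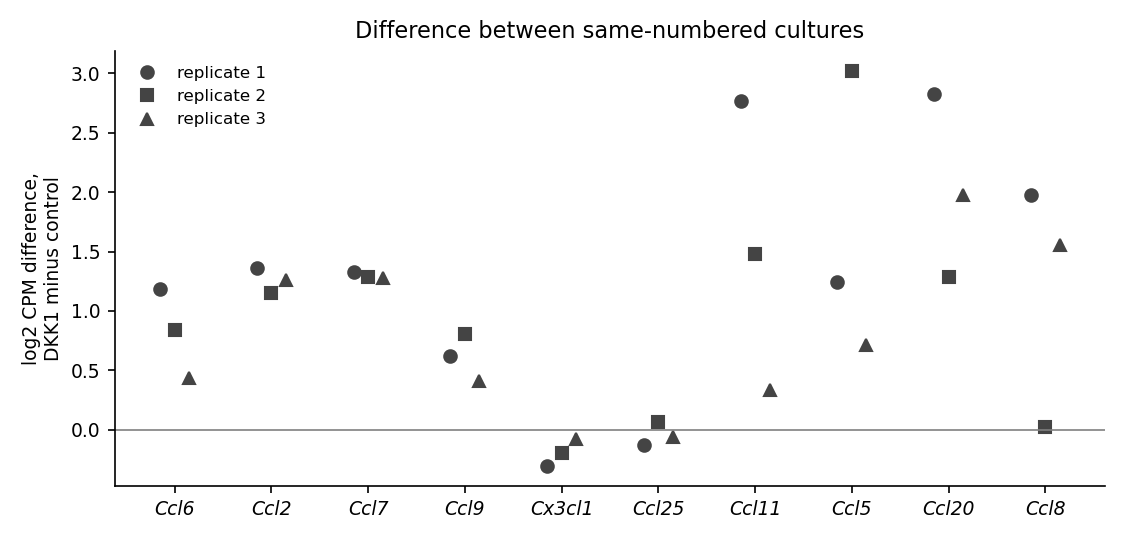
Log2 CPM difference between the DKK1 and the control library of the same replicate number, for each member and each of the 3 numbers. Ccl2 and Ccl7 lie between 1.15 and 1.36 in all 3, Cx3cl1 lies below 0 in all 3, and the members with few counts (Ccl11, Ccl5, Ccl20, Ccl8) are spread most widely.

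Most of the remaining ligands of the CC and XC families had few or no counts. Of 15 in the table, 9 had at most 3 counts in every library, and 5 of these (Ccl1, Ccl21a, Ccl26, Ccl27b and Xcl1) had 0 counts throughout, which allows levels of up to 0.0864 to 0.133 CPM. Ccl27a, known as a skin chemokine, was the 1 ligand tested and had the highest level, 2.30 ± 0.426 CPM in controls and 1.81 ± 0.280 CPM after DKK1 (SD, n = 3 each). Its log2 difference was -0.33 (SE 0.21, edgeR adjusted p = 0.67), its expected counts were fractional in 5 libraries, and it overlaps Il11ra1 on the opposite strand. Ccl3, a macrophage chemokine next to Ccl6 on the chromosome, had 2, 10 and 6 counts in controls and 10, 7 and 22 with DKK1, with overlapping groups. Over all 6 libraries it had the next highest mean level after Ccl27a, and in controls alone Ccl28 was above it (0.254 against 0.236 CPM).

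Transcripts of signalling receptors were at low levels. Of 13, 7 had at most 3 counts in every library and 3 were tested. Ccr1, the receptor of CCL6, CCL9, CCL5 and CCL7, was the most abundant at 3.32, 3.36 and 6.45 CPM in controls and 4.92, 4.66 and 7.59 CPM with DKK1, again highest in replicate 3 (log2 difference 0.38, SE 0.29, edgeR adjusted p = 0.723). Cx3cr1, the fractalkine receptor and also 1 of the 11 leukocyte and macrophage markers, stood at 1.68, 1.73 and 1.77 CPM in controls and 0.733, 0.662 and 1.13 CPM with DKK1, without overlap. Its log2 difference was -1.07 (SE 0.25), not called without the block (edgeR adjusted p = 0.133) and called with it (edgeR adjusted p = 0.0159), while DESeq2 with the block called 0 of the receptors. Ccr2, the CCL2 receptor, had 8, 11 and 11 counts in controls and 5, 3 and 2 with DKK1 and was not tested; it is named here after its values were seen. Without the block edgeR called 0 of the 3 tested receptors, with 1 at an unadjusted p under 0.05, and DESeq2 and limma-voom each called 0. Of 6 atypical receptors, 2 were tested and edgeR called 0, with 0 at an unadjusted p under 0.05 and 0 called by DESeq2 or limma-voom. Ackr3, which binds the CXC ligand CXCL12, was the most abundant with 14.4 ± 4.46 CPM in controls and 16.1 ± 4.35 CPM after DKK1 (SD, n = 3 each; log2 difference 0.15, SE 0.25, edgeR adjusted p = 0.896). Ccrl2 stood at 0.531 ± 0.160 and 0.540 ± 0.175 CPM.

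The list of enzymes that cleave or shed chemokines held 13 genes, among them Rhbdf1 and Rhbdf2, which encode the iRhoms, inactive rhomboid proteins that regulate ADAM17. Of the 13, 12 were tested and 1, Mmp3, was called without the block, beside 0.895% of all genes tested. The median log2 difference was 0.20 over the 12 beside -0.00091 over all genes tested. Mmp3 stood at 19.9, 17.1 and 15.3 CPM in controls and 47.3, 37.2 and 34.3 CPM with DKK1, without overlap (log2 difference 1.18, SE 0.13, edgeR adjusted p = 0.00742). RSEM gave it fractional values in each of the 6 libraries, as it does for reads shared with other loci, and it was not called without control replicate 2 (edgeR adjusted p = 0.0538). With the block edgeR called 9 of the 12 (9.42% over all genes) and DESeq2 7 (3.65% of the 15085 genes to which it gave an adjusted p). Of the 9, Rhbdf2, Mmp3, Mmp8, Mmp9, Mmp12 and Mmp13 were higher and Rhbdf1, Ctss and Mmp14 lower. The membrane protease Mmp14 was the most abundant with 602 ± 5.62 CPM in controls and 560 ± 8.42 CPM after DKK1 (SD, n = 3 each; log2 difference -0.11, SE 0.03, edgeR adjusted p = 0.191 without and 0.00195 with the block). Adam10, the fractalkine sheddase, stood at 197 ± 4.56 and 194 ± 1.68 CPM (SD, n = 3 each; log2 difference -0.03, SE 0.03, edgeR adjusted p = 0.839).

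Chemokine-binding proteoglycans and the chemokine-binding protein TSG-6 formed a list of 8 genes, all tested. Without the block edgeR called 0 of them, with 2 at an unadjusted p under 0.05, and DESeq2 and limma-voom each called 0. With the block edgeR called 4 (Sdc1, Sdc4 and Tnfaip6 higher and Gpc4 lower), beside 9.42% of all genes tested. DESeq2 with the block called 1, beside 3.65% of the genes to which it gave an adjusted p. Sdc3 and Gpc4 were the most abundant, with 281 ± 11.3 and 233 ± 16.4 CPM in controls and 277 ± 3.78 and 220 ± 13.4 CPM in DKK1 libraries (SD, n = 3 each).

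Regulators of chemokine transcripts mostly had log2 differences slightly above 0, and 3 of them rose. Of 19 factors, all tested, 17 had log2 differences above 0 and 2 below, with a median of 0.19, where 49.6% of all tested genes lay above 0. Like the other lists, this one was drawn up with earlier results of this contrast known, so its balance and its calls are not independent evidence of a direction. Bcl3, Nfkbiz and Zc3h12a were called by edgeR, each higher, and 0 were called lower, beside 0.895% called over all genes. DESeq2 without the block called 8 of the 19, beside 2.04% of the 14156 genes to which it gave an adjusted p. Bcl3 encodes a nuclear I-kappa-B protein that binds NF-kB p50 and p52. It stood at 10.1, 14.1 and 12.5 CPM in controls and 20.7, 23.8 and 19.8 CPM with DKK1 (log2 difference 0.80, SE 0.12, edgeR adjusted p = 0.0281). Nfkbiz, which encodes the nuclear co-activator I-kappa-B-zeta, stood at 87.5, 91.6 and 82.2 CPM in controls and 125, 120 and 107 CPM with DKK1 (log2 difference 0.43, SE 0.07, edgeR adjusted p = 0.0276). Zc3h12a encodes Regnase-1, an RNase that degrades transcripts of inflammatory genes. It stood at 16.4, 14.1 and 16.3 CPM in controls and 24.2, 21.4 and 21.6 CPM with DKK1 (log2 difference 0.52, SE 0.08, edgeR adjusted p = 0.0272). In each of these 3 genes the groups did not overlap.

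With the block 9 regulators were called by edgeR (9.42% over all genes) and 9 by DESeq2 (3.65% over all genes with an adjusted p). Those of edgeR were all higher: the above and Nfkb1, Nfkbia, Cebpb, Cebpd, Fos and Zfp36. The most abundant of the 19 over all 6 libraries were Stat3, with 287 ± 3.13 CPM in controls and 296 ± 7.56 CPM after DKK1 (SD, n = 3 each; log2 difference 0.04, SE 0.03, edgeR adjusted p = 0.769), and Cebpb, at 129 ± 22.3 and 169 ± 7.89 CPM (SD, n = 3 each; log2 difference 0.39, SE 0.11, edgeR adjusted p = 0.208 without and 0.000297 with the block). Of the 6 fits that left out 1 library, Bcl3 and Zc3h12a were each called in 2 and Nfkbiz in 1, with positive log2 differences throughout. The call of Bcl3 was lost without control replicate 1 or 3 or DKK1 replicate 1 or 2. That of Zc3h12a was lost without control replicate 1 or 2 or DKK1 replicate 1 or 2. That of Nfkbiz was kept only without DKK1 replicate 3. Over the alternatives, the highest adjusted p-values (edgeR, without 1 library) were 0.125 for Bcl3, 0.127 for Zc3h12a and 0.129 for Nfkbiz.

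**Figure D5:**
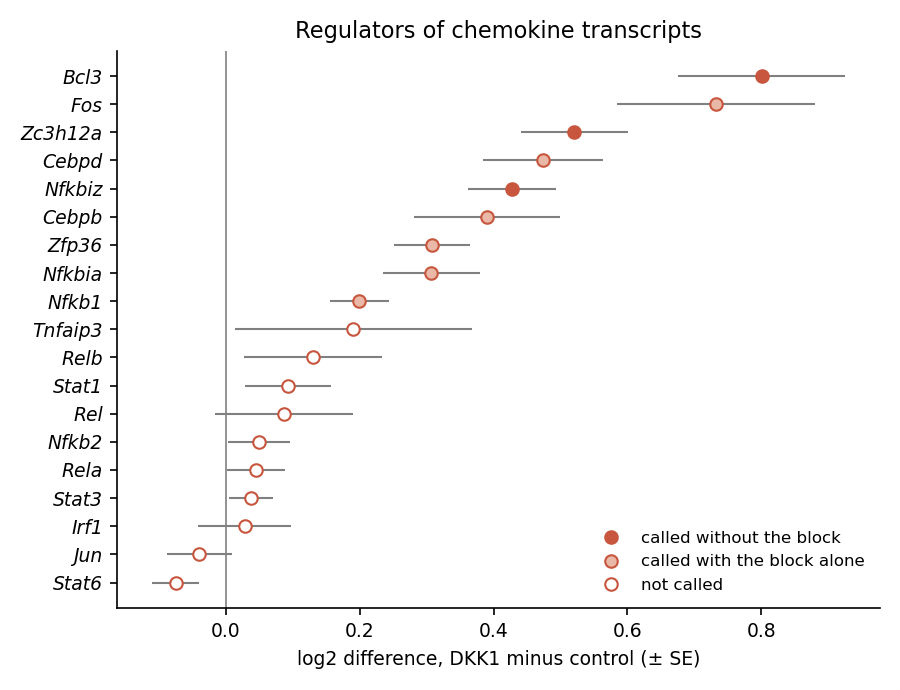
Log2 difference (DKK1 minus control, points, with SE as bars) of 19 regulators of chemokine transcripts. Filled points were called without the replicate block (Bcl3, Zc3h12a and Nfkbiz), light points with the block alone, and open points in neither fit; 17 of 19 lie above 0.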

How the data were processed

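RNA from 3 control and 3 DKK1 cultures was taken with TRIzol and column purification, per the labels' protocols. The authors deposited RSEM expected counts per gene, unscaled, with 9.62% to 10.6% of values not whole. STAR, RSEM, edgeR 4.2.1 and the builds GRCm38 and mm10 are named in the submitters' processing notes. The annotation release and strandedness of the counting are not given in the sources used here; positions and transcript lengths come from GENCODE M21 (GRCm38). Symbols were found for 45143 of 45706 Ensembl identifiers.

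Expected counts were rounded and tested in R 4.3.3 with the edgeR 4.0.16 quasi-likelihood test (filterByExpr with a minimum count of 10, TMM factors, group as the only term, two-sided, Benjamini-Hochberg adjustment over all 14635 genes tested); the procedure was checked on simulated data. SE is the absolute log2 difference divided by the square root of F. Profiles use log2 CPM with a prior count of 2. Intervals of pooled rates are exact binomial, at 95%. Chi-square per degree of freedom between replicates was 5.19 to 8.14 over 6 pairs, so no library was counted as a copy.

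The members and lists were chosen with earlier results of these data known. Named genes are the members, the called genes of each list, its 2 most abundant genes and the nearest profiles of the 2 most abundant members; genes called with the block are also named. Replicate numbers come from the sample titles. Deviations of same-numbered libraries from their group means correlated across genes at 0.27, 0.23 and 0.41, so the numbers were taken to pair the samples, and a fit with the number as a block was an alternative. Others were DESeq2 1.42.0, limma-voom (limma 3.58.1), other scalings and filters, unrounded counts and leaving out each library. The values of 1 receptor are not reported here.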

Additional observations from a re-analysis of the deposited data

How the results depend on the processing

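Ccl7 was called in all 15 alternatives and Ccl2 in 13, the exceptions being the fits without control replicate 2 or 3; their log2 differences ranged from 1.16 to 1.41 and from 1.03 to 1.43. Ccl6 was called in 3 (the block in edgeR and in DESeq2, and without control replicate 3), Ccl9 in 2 (the block in edgeR and in DESeq2), and Ccl11, Ccl25 and Cx3cl1 in none of theirs. Ccl11 ranged from 0.90 to 1.98, Ccl6 from 0.479 to 1.17, Ccl9 from 0.327 to 0.95 and Cx3cl1 from -0.269 to -0.0773, while Ccl25, never called, ranged from -0.099 to 0.0371. Pairing by the replicate block raised the members called from 2 to 4 in edgeR and to 4 in DESeq2, and leaving out 1 library gave 1 to 2. The members were chosen with this contrast known, and the alternatives reuse the same libraries. These counts therefore describe the fits and are not independent evidence.

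Over all genes, 131 were called. The replicate block gave 1379 in edgeR and 551 in DESeq2, DESeq2 without it 289, no low-count filter 329, and leaving out 1 library 36 to 139, with 51 without control replicate 1, 36 without control replicate 2, 44 without DKK1 replicate 1 and 57 without DKK1 replicate 2. Of the 45 tested genes of the pathway lists, 4 were called, against 23 with the replicate block, 17 with the block in DESeq2, 9 in DESeq2, 12 with no low-count filter and 1 to 5 with 1 library left out (1 without each of those same 4 libraries). The unfiltered fit tested 23883 genes and each of the leave-one-out fits had 5 libraries; otherwise the cause was not tested. Other scalings, limma-voom, the stricter filter and unrounded counts kept these counts within 1.5 times. The 3 nearest profiles of Ccl2 and of Ccl6 were the same with library totals. Few counts limit what can be compared for Ccl8, Ccl5 and Ccl20.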
